A study of Rattus norvegicus with 35 samples.

Results

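The integrated stress response is a shared program that cells use when protein synthesis or folding is disturbed, amino acids run short or energy fails. Kinases such as PERK phosphorylate the initiation factor eIF2, general translation falls, and the mRNA of the transcription factor Atf4 is then translated more efficiently. Atf4 and its partners, CHOP among them, switch on genes for amino acid supply, redox balance, restraint of growth signalling and, when the stress lasts, cell death, and in optic nerve injury this program is studied because retinal ganglion cells, whose axons form the nerve, die after it. 10 genes of this response were followed here in the rat retina: the kinase gene Eif2ak3, the phosphatase regulator Ppp1r15a, the transcription factors Atf4, Atf5 and Ddit3, the pseudokinase Trib3, and the effectors Chac1, Sesn2, Ddit4 and Vldlr. All 10 of 10 had a probe set that carried their symbol alone, among 14217 such genes, and each is read from that of its probe sets which was brightest on average over the 35 arrays. They were picked with earlier results of these arrays known, namely low signals at 12 h after crush, against naive retinas and against transection. The 12 h comparisons are therefore given as descriptions and without a test. Later tests against naive retinas use the same naive arrays, so they are not independent of that choice.

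The study asked how the retina responds over time to 2 injuries of the optic nerve, both of which kill retinal ganglion cells. Adult female Sprague-Dawley rats had the left optic nerve cut (intraorbital nerve transection, IONT) or crushed (intraorbital nerve crush, IONC) behind the eye, the crush lying farther from the eye than the cut, and naive rats were not operated on. Whole left retinas were collected after IONT at 12 h (3 arrays), 24 h (2), 48 h (3), 3 d (2), 7 d (3) and 15 d (2), after IONC at the same times up to 7 d (3 arrays each), and from naive rats (5 arrays). Each Affymetrix RAE230.2 array took an RNA pool of 4 retinas, each from another animal, so errors and p-values describe the spread between pools. No sham-operated group is among the samples.

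All values are log2 signals as deposited, on which a difference of 1 is a doubling, and signals of different genes were not set against each other, since probe sets differ in brightness. Outside 12 h, a difference was called when limma gave a Benjamini-Hochberg adjusted p below 0.01 over 31042 probe sets, log odds (B) above 0 and at least a 1.2-fold change. The array labelled IONC 12 h replicate 2 stood apart. Its signals had an SD of 2.31 over probe sets, against 2.89 to 3.04 on the other 34 arrays, and its median correlation with the other arrays was 0.871. Since all groups shared 1 estimate of the spread, that array widened the errors at every time, and the members' calls are given with and without it. 8 arrays, naive replicates 4 and 5 and all arrays of IONT 24 h, 3 d and 15 d, had an actin 3′ minus 5′ probe difference of 2.61 to 3.65, against 1.53 to 1.93 on the other 27, a measure of RNA integrity and of labelling. For IONT at 24 h, 3 d and 15 d, results are therefore also given from a model with a term for this set. In this array-set model, those arrays are set against naive replicates 4 and 5, and all other injured arrays against naive replicates 1 to 3.

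**Figure D1:**
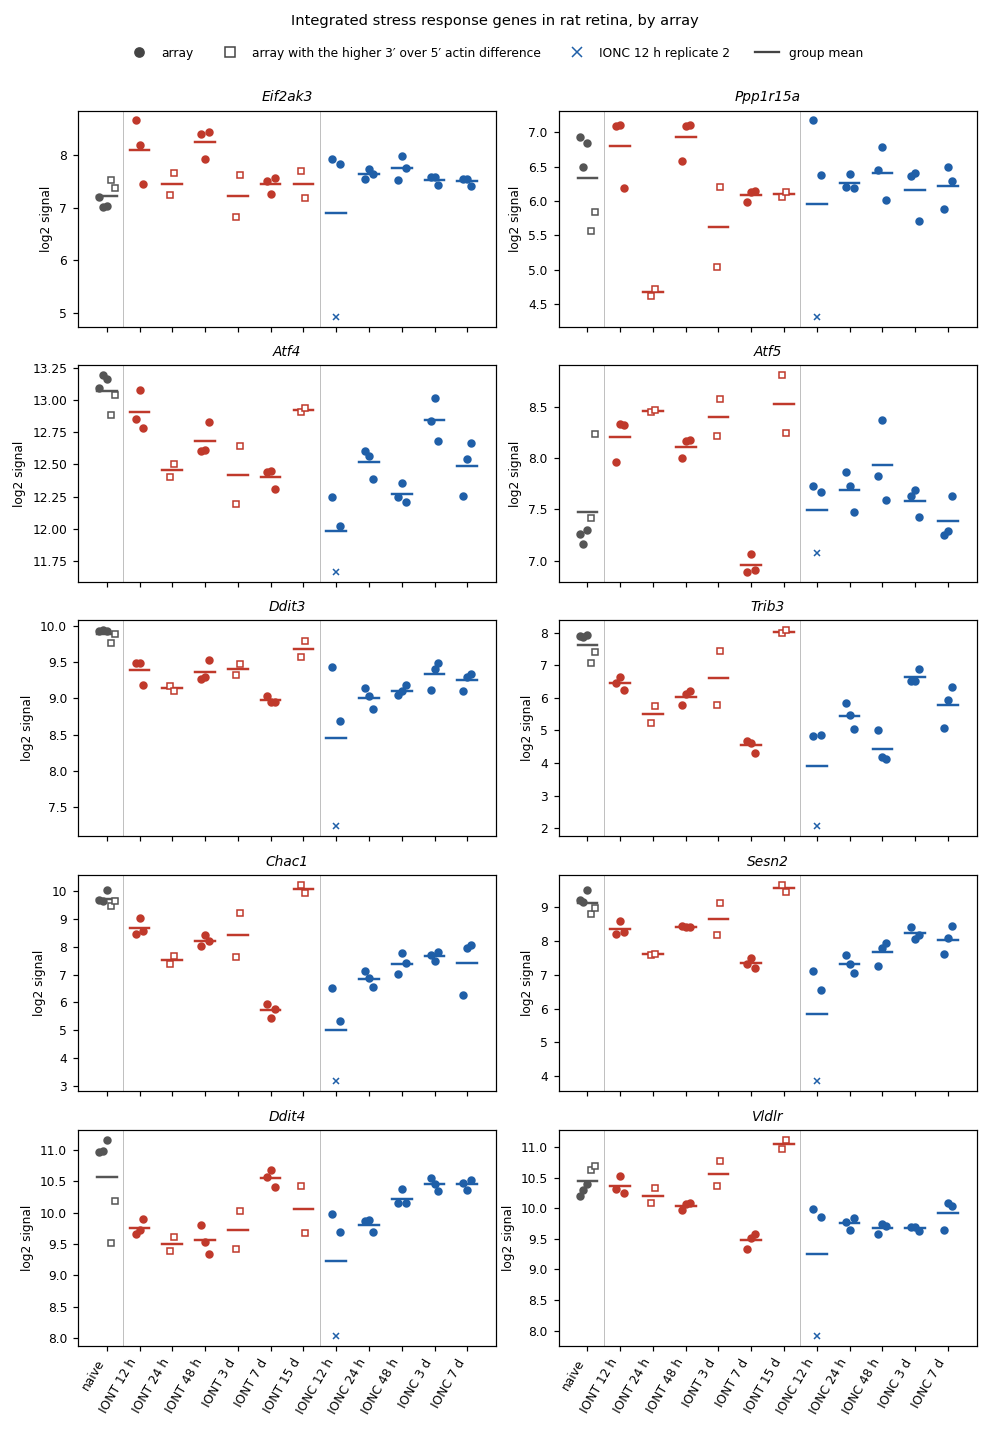
Log2 signal (vertical axis) of each of the 10 genes on each of 35 arrays, by group (horizontal axis: naive, IONT 12 h to 15 d, IONC 12 h to 7 d), with squares for the 8 arrays with the larger actin difference and a cross for IONC 12 h replicate 2. Chac1 has its lowest means at IONC 12 h and IONT 7 d and Trib3 at IONC 12 h, IONC 48 h and IONT 7 d, and they are back at 10.23 and 9.95 and at 7.99 and 8.08 at 15 d after IONT.

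Chac1 (probe set 1389573_at) encodes an enzyme that degrades glutathione and is among the most strongly induced genes of the response in stressed cells. In these retinas it lay below naive retinas at every time but 15 d after IONT. After IONT it measured 8.45, 9.02 and 8.56 at 12 h, 7.39 and 7.67 at 24 h, 8.04, 8.43 and 8.20 at 48 h, 7.65 and 9.21 at 3 d, 5.95, 5.43 and 5.76 at 7 d, and 10.23 and 9.95 at 15 d. After IONC it measured 6.54, 3.16 and 5.33 at 12 h, 7.13, 6.87 and 6.56 at 24 h, 7.01, 7.78 and 7.40 at 48 h, 7.70, 7.49 and 7.81 at 3 d, and 6.26, 7.95 and 8.08 at 7 d. In naive retinas it measured 9.70, 9.66, 10.04, 9.47 and 9.67. All arrays from 12 h to 7 d lay below the lowest naive array, and both arrays of IONT 15 d lay within or above the naive range.

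The fall of Chac1 that was tested was largest at 7 d after IONT, a log2 difference from naive retinas of -3.99 (SE 0.47, adjusted p = 8.14e-06), which is 15.9-fold. After IONC, Chac1 fell at 24 h (-2.86, SE 0.47, adjusted p = 0.000718), at 48 h (-2.31, SE 0.47, adjusted p = 0.00484) and at 7 d (-2.28, SE 0.47, adjusted p = 0.00889). No call was lost on leaving out any one array at IONT 7 d and IONC 24 h, while leaving out any of 5 arrays ended the call at IONC 48 h and any of 30 ended that at IONC 7 d. Both of these IONC calls also ended in the array-set model (adjusted p = 0.0116 at 48 h and 0.0247 at 7 d). That model sets IONC against naive replicates 1 to 3 alone, which read 9.70, 9.66 and 10.04. The differences at IONT 24 h, -2.18 (SE 0.54, adjusted p = 0.0151), and at IONC 3 d, -2.04 (SE 0.47, adjusted p = 0.023), were not called with all arrays. On leaving out IONC 12 h replicate 2 the differences stayed the same and the errors shrank, and Chac1 was called lower at 24 h, 48 h and 7 d after IONT and at 24 h, 48 h, 3 d and 7 d after IONC, with adjusted p between 6.96e-08 and 0.00456. The array-set model called Chac1 at neither 24 h nor 48 h after IONT, with or without IONC 12 h replicate 2. At 15 d after IONT the difference was 0.38 (SE 0.54, adjusted p = 0.728).

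Trib3 (probe set 1370695_s_at) encodes a pseudokinase that is induced by Atf4 and CHOP and that binds Atf4 and the kinase Akt. It followed a similar course. After IONT it measured 6.46, 6.63 and 6.23 at 12 h, 5.24 and 5.75 at 24 h, 5.79, 6.11 and 6.20 at 48 h, 5.77 and 7.43 at 3 d, 4.69, 4.62 and 4.31 at 7 d, and 7.99 and 8.08 at 15 d. The IONC arrays gave 4.82, 2.05 and 4.87 at 12 h, 5.85, 5.46 and 5.05 at 24 h, 5.02, 4.17 and 4.13 at 48 h, 6.52, 6.51 and 6.89 at 3 d, and 5.07, 5.94 and 6.35 at 7 d, against 7.91, 7.85, 7.92, 7.06 and 7.41 in naive retinas. The 3 arrays of IONT 7 d lay below all naive arrays, the 2 arrays of IONT 3 d lay 1 below and 1 within the naive range, and both arrays of IONT 15 d lay above it.

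Trib3 fell 8.51-fold at 7 d after IONT (-3.09, SE 0.45, adjusted p = 0.000128), 9.11-fold at 48 h after IONC (-3.19, SE 0.45, adjusted p = 0.000126), and 4.53-fold at 24 h after IONC (-2.18, SE 0.45, adjusted p = 0.00662). Each single array could be left out without loss of the first and second of these calls, and 7 of the 35 ended the call at IONC 24 h. Its differences at 24 h after IONT, -2.14 (SE 0.52, adjusted p = 0.0122), at 48 h after IONT, -1.60 (SE 0.45, adjusted p = 0.035), and at 7 d after IONC, -1.84 (SE 0.45, adjusted p = 0.0294), were called only without IONC 12 h replicate 2 (adjusted p = 0.000277, 0.000899 and 0.000528). The array-set model did not call Trib3 at IONT 24 h, with or without that array. Of the other 2 probe sets with the Trib3 symbol, 1 gave -2.73, adjusted p = 7.24e-08 at IONT 7 d and was also called lower at 24 h, 48 h and 3 d after IONT and at 24 h, 48 h and 7 d after IONC. The other gave -2.59, adjusted p = 0.002 at IONT 7 d and was also called lower at IONT 24 h and IONC 48 h. Their correlations with the chosen one over 34 arrays were 0.92 and 0.85.

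Among the 10 genes, Chac1 and Trib3 were also those whose start carries the letters TGATGNAA, or TTNCATCA on the other strand, a form of the composite C/EBP and ATF element that Atf4 with a C/EBP partner binds. The window searched ran from 250 bases before to 50 after the RefSeq transcription start on assembly GRCr8, with both strands searched, and all 10 genes were in the table. The letters were found in 2 of 10 (20%), against 1332 of 33469 promoters (3.98%). The 250 bases before each start are shown because their falls were the largest of those called among the members, with the match in capitals, at position -167 in Chac1 (chr3:126795881-126796130, plus strand) and -21 in Trib3 (chr3:161275534-161275783, minus strand, printed in the direction of the gene).
Chac1: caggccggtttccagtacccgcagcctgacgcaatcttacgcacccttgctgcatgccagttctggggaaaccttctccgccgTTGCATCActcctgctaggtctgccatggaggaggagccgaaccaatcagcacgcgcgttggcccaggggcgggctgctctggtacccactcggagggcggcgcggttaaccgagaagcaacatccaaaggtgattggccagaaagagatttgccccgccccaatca
Trib3: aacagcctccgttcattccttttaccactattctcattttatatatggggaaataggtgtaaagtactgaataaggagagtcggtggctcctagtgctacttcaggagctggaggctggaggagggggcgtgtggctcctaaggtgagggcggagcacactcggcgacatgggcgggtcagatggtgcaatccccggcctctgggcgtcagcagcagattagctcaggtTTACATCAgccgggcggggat
Of 17 genes whose profile over the arrays was most like one of the members and that were in the table, 2 (11.8%) held the letters, Cars1, a cysteinyl-tRNA synthetase, at position 18 (chr1:208225334-208225363, minus strand), and Slc1a4, a transporter of neutral amino acids, at position -235 (chr14:98761779-98761808, minus strand). The 30 bases around these matches were as follows.
Cars1: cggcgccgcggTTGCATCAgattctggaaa
Slc1a4: cgcctccagcgTTGCATCAtccagccagca
The letters are a description of these windows, and no binding was measured.

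Sesn2 (probe set 1391607_at) encodes a leucine sensor that restrains the growth kinase mTORC1 and is induced through Atf4 and p53. After IONT it measured 8.20, 8.59 and 8.26 at 12 h, 7.59 and 7.60 at 24 h, 8.44, 8.40 and 8.39 at 48 h, 8.18 and 9.12 at 3 d, 7.33, 7.48 and 7.20 at 7 d, and 9.65 and 9.43 at 15 d. After IONC the arrays gave 7.10, 3.86 and 6.55 at 12 h, 7.57, 7.32 and 7.05 at 24 h, 7.25, 7.77 and 7.94 at 48 h, 8.41, 8.06 and 8.17 at 3 d, and 7.61, 8.08 and 8.42 at 7 d. Naive retinas gave 9.19, 9.14, 9.50, 8.78 and 8.98. The arrays of IONT 12 h, 24 h, 48 h and 7 d and of all IONC times lay below the lowest naive array. The arrays of IONT 3 d straddled the lower naive limit, and of those of IONT 15 d 1 lay above and 1 within the naive range. With all 35 arrays no difference of Sesn2 outside 12 h was called. The largest were -1.81 (SE 0.41, adjusted p = 0.0137) at IONC 24 h and -1.78 (SE 0.41, adjusted p = 0.0132) at IONT 7 d. A second and dim probe set of Sesn2, which averaged 3.24 over the arrays and correlated with this one with r = 0.47, gave -0.23, adjusted p = 0.581 at IONT 7 d and -0.27, adjusted p = 0.822 at IONC 24 h. In the chosen probe set IONC 12 h replicate 2 read 3.86 beside 7.10 and 6.55. Without that array its residual SD over groups was 0.287, against 0.578 with it, and it was called lower at IONT 24 h (adjusted p = 0.000139) and 7 d (3.43e-06) and at IONC 24 h (5.72e-06), 48 h (5.32e-05), 3 d (0.00419) and 7 d (0.00158). The array-set model called Sesn2 at IONT 24 h only when that array was left out as well.

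The transcription factors came next. Atf4 (probe set 1367624_at), which is controlled mainly at translation, moved by less than 1 log2 unit at each time after 12 h. Its arrays after IONT gave 12.85, 13.08 and 12.78 at 12 h, 12.40 and 12.50 at 24 h, 12.60, 12.61 and 12.83 at 48 h, 12.19 and 12.64 at 3 d, 12.44, 12.45 and 12.31 at 7 d, and 12.91 and 12.94 at 15 d. Those after IONC gave 12.25, 11.67 and 12.03 at 12 h, 12.61, 12.56 and 12.39 at 24 h, 12.25, 12.36 and 12.21 at 48 h, 12.84, 13.02 and 12.69 at 3 d, and 12.26, 12.55 and 12.66 at 7 d, and naive retinas gave 13.09, 13.19, 13.16, 12.88 and 13.04. All arrays of IONT 24 h, 48 h, 3 d and 7 d and of IONC 12 h, 24 h, 48 h and 7 d lay below the lowest naive value, while IONT 12 h, IONT 15 d and IONC 3 d overlapped with the naive range.

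Atf4 fell at IONT 24 h (-0.62, SE 0.14, adjusted p = 0.00624), at IONT 3 d (-0.66, adjusted p = 0.00462), and at IONT 7 d (-0.67, SE 0.12, adjusted p = 0.0012). After IONC it fell at 24 h (-0.55, adjusted p = 0.00915), at 48 h (-0.80, SE 0.12, adjusted p = 0.000203), and at 7 d (-0.58, adjusted p = 0.00758). The call at IONC 48 h held on leaving out each array, that at IONT 7 d was lost without IONT 7 d replicate 3 (adjusted p = 0.0137), and those at IONC 24 h and IONC 7 d were lost without any of 25 and 17 of the 35 arrays. In the array-set model the differences at IONT 24 h and 3 d were -0.51 and -0.54 and were not called (adjusted p = 0.134 and 0.0871). All 6 calls of Atf4 held on the 34 arrays without IONC 12 h replicate 2, and none was added.

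Ddit3 (probe set 1369590_a_at) encodes CHOP, a transcription factor linked to cell death under lasting stress. After IONT it measured 9.49, 9.49 and 9.19 at 12 h, 9.17 and 9.10 at 24 h, 9.26, 9.29 and 9.52 at 48 h, 9.32 and 9.47 at 3 d, 9.03, 8.95 and 8.96 at 7 d, and 9.57 and 9.79 at 15 d. After IONC it measured 9.43, 7.24 and 8.69 at 12 h, 9.14, 9.04 and 8.85 at 24 h, 9.04, 9.10 and 9.19 at 48 h, 9.12, 9.40 and 9.48 at 3 d, and 9.10, 9.30 and 9.34 at 7 d, against 9.92, 9.94, 9.92, 9.76 and 9.88 in naive retinas. Every array but 1 of IONT 15 d lay below the lowest naive array. None of the differences of Ddit3 outside 12 h was called with all arrays, the nearest being -0.91 (SE 0.25, adjusted p = 0.0399) at IONT 7 d and -0.88 (SE 0.25, adjusted p = 0.0573) at IONC 24 h. Without IONC 12 h replicate 2, at which Ddit3 read 7.24 beside 9.43 and 8.69, it was called lower at IONT 24 h, 48 h and 7 d and at IONC 24 h, 48 h, 3 d and 7 d, with adjusted p between 1.62e-05 and 0.00326. At IONT 24 h the array-set model did not call Ddit3, with or without that array.

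Atf5 (probe set 1372601_at), a relative of Atf4 that also acts in the mitochondrial stress response, stood above its naive mean after IONT at each time but 7 d. Its IONT arrays gave 7.96, 8.33 and 8.33 at 12 h, 8.46 and 8.48 at 24 h, 8.00, 8.17 and 8.18 at 48 h, 8.22 and 8.58 at 3 d, 6.89, 7.07 and 6.91 at 7 d, and 8.81 and 8.24 at 15 d. Its IONC arrays gave 7.73, 7.07 and 7.67 at 12 h, 7.87, 7.73 and 7.48 at 24 h, 7.82, 8.38 and 7.60 at 48 h, 7.63, 7.69 and 7.43 at 3 d, and 7.25, 7.29 and 7.63 at 7 d, and naive retinas gave 7.26, 7.16, 7.30, 7.42 and 8.23, of which replicate 5 stood above the other 4. With that array, at 8.23, the naive range overlapped with every injured group but IONT 24 h, IONT 7 d and IONT 15 d. Atf5 rose at IONT 15 d, by 1.05 (SE 0.24, adjusted p = 0.00459), a call that was lost on leaving out any of 5 arrays and in the array-set model (0.70, adjusted p = 0.164). It was 0.99 above naive retinas at IONT 24 h (adjusted p = 0.0112), which was called without IONC 12 h replicate 2 (adjusted p = 0.00433) and not in the array-set model (0.64, adjusted p = 0.323). At IONT 3 d it was 0.93 above naive retinas (adjusted p = 0.0202), and at IONT 7 d the difference was -0.52 (SE 0.21, adjusted p = 0.181), with all 3 arrays below the naive range. After IONC no difference of Atf5 was called, with or without IONC 12 h replicate 2.

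At the top of the pathway, Eif2ak3 (probe set 1368326_at), the gene of the endoplasmic reticulum kinase PERK, was not called at any time with all arrays. It measured 8.40, 7.93 and 8.44 at IONT 48 h, against 7.21, 7.00, 7.04, 7.52 and 7.37 in naive retinas, without overlap. The difference was 1.03 (SE 0.41, adjusted p = 0.173), and without IONC 12 h replicate 2 it was called (adjusted p = 0.00132). Elsewhere after 12 h its differences from naive retinas ranged from -0.01 to 0.53. Ppp1r15a (probe set 1370174_at), which encodes GADD34, the subunit that directs a phosphatase to eIF2 and so ends the response, gave 4.62 and 4.72 at IONT 24 h, against 6.93, 6.50, 6.84, 5.57 and 5.84 in naive retinas. Both injured arrays lay below the naive range, with a difference of -1.67 (SE 0.48, adjusted p = 0.0358), which was called without IONC 12 h replicate 2 (adjusted p = 0.00246) and not in the array-set model (-1.03, adjusted p = 0.626). Naive replicates 4 and 5, of the same array set as IONT 24 h, were the lowest naive arrays for Ppp1r15a. Its differences at other times after 12 h ranged from -0.71 to 0.59 and none was called.

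Ddit4 (probe set 1368025_at) encodes REDD1, an inhibitor of mTORC1 that hypoxia and glucocorticoids induce as well as Atf4. It gave 9.39 and 9.62 at IONT 24 h and 9.81, 9.53 and 9.34 at IONT 48 h, against 10.98, 10.99, 11.17, 9.52 and 10.19 in naive retinas. Naive replicates 4 and 5 were again the lowest, and the groups overlapped. No difference after 12 h was called with all arrays, the largest being -1.06 (SE 0.38, adjusted p = 0.0947) at IONT 24 h and -1.01 (SE 0.33, adjusted p = 0.0758) at IONT 48 h. In the array-set model, the second of these was -1.49 and was called (adjusted p = 0.00365). At 7 d the difference of Ddit4 from the mean of all naive arrays was -0.11 after IONC and -0.02 after IONT. Its arrays then read 10.47, 10.37 and 10.53 after IONC and 10.56, 10.68 and 10.41 after IONT. All of these lay above naive replicates 4 and 5 and below the other naive arrays, which are of the same array set as the 7 d arrays.

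Vldlr (probe set 1389611_at), a lipoprotein receptor that PERK and Atf4 induce, measured 10.32, 10.53 and 10.25 at 12 h, 10.08 and 10.33 at 24 h, 9.97, 10.07 and 10.09 at 48 h, 10.36 and 10.77 at 3 d, 9.33, 9.51 and 9.59 at 7 d, and 10.97 and 11.13 at 15 d after IONT. After IONC it measured 9.99, 7.91 and 9.86 at 12 h, 9.78, 9.65 and 9.84 at 24 h, 9.57, 9.75 and 9.72 at 48 h, 9.69, 9.70 and 9.63 at 3 d, and 9.65, 10.09 and 10.04 at 7 d. In naive retinas it measured 10.20, 10.30, 10.40, 10.63 and 10.70. All arrays of IONC and of IONT 48 h and 7 d lay below the lowest naive array, and both of IONT 15 d above the highest. With all arrays no difference outside 12 h was called in this probe set, the largest being -0.97 (SE 0.27, adjusted p = 0.0414) at IONT 7 d. Of the other 3 probe sets of Vldlr, 1 was called lower with all arrays at IONT 24 h (-0.64, adjusted p = 0.00907), at IONT 7 d (-0.88, adjusted p = 0.000137) and at IONC 24 h, 48 h and 3 d, and another at IONT 7 d (-1.01, adjusted p = 0.009). The remaining one was not called at any of these times and gave -0.88, adjusted p = 0.0125 at IONT 7 d. Their correlations with the chosen probe set were 0.88, 0.93 and 0.46. Without IONC 12 h replicate 2 the residual SD was 0.158, against 0.377 with it. Vldlr was then called lower at IONT 7 d (adjusted p = 3.91e-06) and at IONC 24 h, 48 h, 3 d and 7 d (adjusted p between 8.96e-05 and 0.00412), and higher at IONT 15 d, by 0.60 (adjusted p = 0.00195). In the array-set model the value at IONT 15 d was 0.38 (adjusted p = 0.918).

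**Figure D2:**
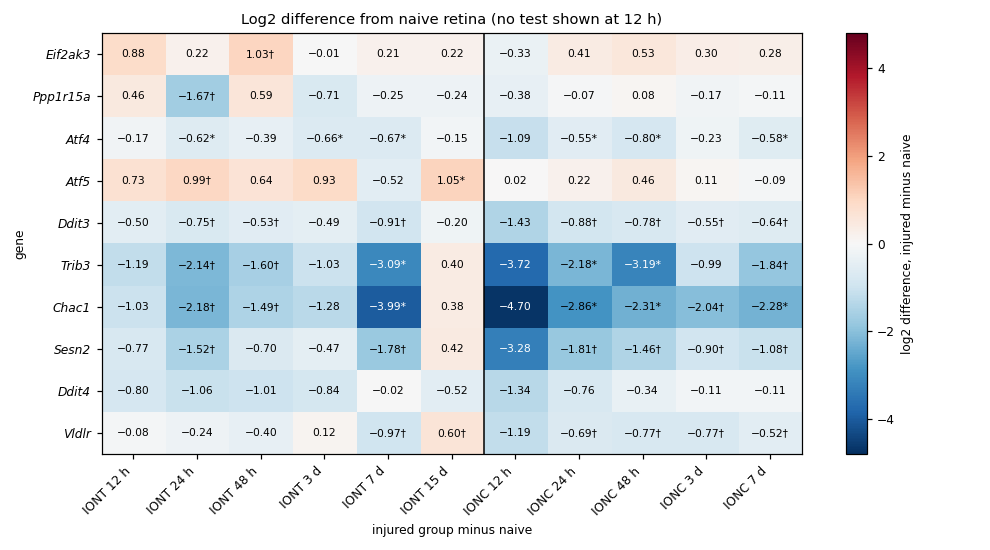
Log2 difference from naive retinas (colour) of the 10 genes (vertical axis) at each time after IONT and IONC (horizontal axis), with an asterisk for a call with all 35 arrays, a dagger for a call only without IONC 12 h replicate 2, and no marks at 12 h. The largest fall that was tested is that of Chac1 at IONT 7 d, -3.99, and Atf5 at IONT 15 d, 1.05, is the only asterisk on a rise.

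By time after IONT, 1 of 10 members was called at 24 h (Atf4), beside 2.59% of all probe sets, 0 at 48 h, beside 2.62%, 1 at 3 d (Atf4), beside 2%, 3 at 7 d (Atf4, Trib3 and Chac1), beside 1.46%, and 1 at 15 d (Atf5), beside 4.03%. At 48 h, 7 of the 10 had an unadjusted limma p below 0.05. The share of all probe sets at that looser limit is not given, so nothing is read from this count. The median difference of the members was -0.91 at 24 h and -0.47 at 48 h, then -0.57 at 3 d and -0.79 at 7 d, and it was 0.30 at 15 d, against medians of all genes between -0.02 and 0.05. Without IONC 12 h replicate 2 the counts were 7 at 24 h, beside 5.41%, 4 at 48 h, beside 6.04%, 1 at 3 d, beside 4.9%, 6 at 7 d, beside 6.62%, and 2 at 15 d, beside 7.06%. In the array-set model, 0 members were called at 24 h, 3 d and 15 d, beside 0.831%, 0.954% and 1.87% of all probe sets.

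By time after IONC, the counts were 3 at 24 h (Atf4, Trib3 and Chac1), beside 1.15% of all probe sets, 3 at 48 h (the same genes), beside 1.6%, 0 at 3 d, beside 0.535%, and 2 at 7 d (Atf4 and Chac1), beside 0.741%, each of them lower than in naive retinas. At 3 d, 5 of the 10 had an unadjusted limma p below 0.05, a looser limit for which no share of all probe sets is given. Nothing is read from it. The medians were -0.72 at 24 h and -0.77 at 48 h, then -0.39 at 3 d and -0.55 at 7 d, against 0.03 to 0.05 for all genes. With IONC 12 h replicate 2 left out, 6 were called at 24 h, beside 4.1%, 6 at 48 h, beside 5.21%, 4 at 3 d, beside 4.29%, and 6 at 7 d, beside 3.75%. The members added at 24 h and 48 h were Ddit3, Sesn2 and Vldlr.

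At 12 h the members had been chosen on the values now described. At IONC 12 h Chac1 read 6.54, 3.16 and 5.33, against 8.45, 9.02 and 8.56 at IONT 12 h and 9.70, 9.66, 10.04, 9.47 and 9.67 in naive retinas. Its difference from naive retinas was -4.70 (SE 0.47) after IONC and -1.03 (SE 0.47) after IONT. Trib3 differed from naive retinas by -3.72 after IONC and by -1.19 after IONT. For Sesn2 the differences were -3.28 after IONC and -0.77 after IONT, and for Atf4 -1.09 after IONC and -0.17 after IONT. In each of these genes IONC 12 h replicate 2 was the lowest of all 35 arrays, and the other 2 IONC arrays also lay below every IONT 12 h and naive array.

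Eif2ak3 and Ppp1r15a were split at IONC 12 h. Eif2ak3 read 7.93, 4.92 and 7.83, against 8.66, 8.20 and 7.45 at IONT 12 h and 7.21, 7.00, 7.04, 7.52 and 7.37 in naive retinas, so 2 IONC arrays lay above the naive range and replicate 2 below it. Ppp1r15a read 7.17, 4.31 and 6.38, against 7.09, 7.11 and 6.20 at IONT 12 h, and the groups overlapped when replicate 2 was set aside. Vldlr read 9.99, 7.91 and 9.86, against 10.32, 10.53 and 10.25 at IONT 12 h. Ddit4 read 9.98, 8.03 and 9.69, against 9.65, 9.73 and 9.91 at IONT 12 h, where replicate 2 was the only array below those of IONT. Counted by the same thresholds, 6 of 10 members (Atf4, Ddit3, Trib3, Chac1, Sesn2 and Vldlr) passed at IONC 12 h, beside 5.65% of all probe sets, and 0 at IONT 12 h, beside 1.3%. Without replicate 2 the counts were 5, beside 4.98%, and 2 (Ddit3 and Eif2ak3), beside 3.52%. The rule used these comparisons, and nothing is read from the counts.

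Set directly against each other at 12 h, IONC minus IONT was -3.67 (SE 0.53) for Chac1, -2.53 (SE 0.50) for Trib3, -2.51 (SE 0.46) for Sesn2 and -0.92 (SE 0.13) for Atf4. Without IONC 12 h replicate 2 it was -2.74 (SE 0.43) for Chac1, -1.59 (SE 0.39) for Trib3, -1.52 (SE 0.26) for Sesn2 and -0.77 (SE 0.13) for Atf4. For Ddit4 the difference was -0.53 with replicate 2 and 0.07 without it, for Ppp1r15a -0.85 and -0.02, for Eif2ak3 -1.21 and -0.22, for Vldlr -1.11 and -0.44, for Ddit3 -0.93 and -0.33, and for Atf5 -0.71 and -0.50. On the other 2 IONC arrays, 6 members (Chac1, Sesn2, Trib3, Atf4, Vldlr and Atf5) lay wholly below the IONT 12 h arrays. The members were chosen on this comparison, no share over all genes is given for this order, and nothing is read from it. By the thresholds, 4 of 10 passed with all arrays (Atf4, Trib3, Chac1 and Sesn2), beside 0.934% of all probe sets, and 3 without replicate 2 (Atf4, Chac1 and Sesn2), beside 0.58%, and again nothing is read from these counts. Over all genes the median difference was -0.10 with and 0.00 without replicate 2.

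After 12 h, the direct comparison of the injuries called 0 of 10 members at 24 h, beside 6.16% of all probe sets, 0 at 48 h, beside 0.103%, 0 at 3 d, beside 5%, and 0 at 7 d, beside 0.029%. An unadjusted limma p below 0.05 was seen for 2, 2, 3 and 2 members at these times. The shares above are for the stricter thresholds, so nothing is read from these counts. Without IONC 12 h replicate 2 the counts were 0 at 24 h, beside 11%, 0 at 48 h, beside 0.242%, 1 at 3 d, beside 11.9%, and 0 at 7 d, beside 0.139%. The gene at 3 d was Vldlr, which read 9.69, 9.70 and 9.63 after IONC, against 10.36 and 10.77 after IONT, without overlap (-0.89, adjusted p = 0.000146). Both IONT 3 d arrays belong to the set with the larger actin difference, and with that set as a term the value was -0.53 (adjusted p = 0.912). With this term 0 members were called at 24 h, beside 0.235%, and 0 at 3 d, beside 0.126%.

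At 7 d the order of the injuries in Chac1 was the opposite of that at 12 h, without a call. Chac1 read 6.26, 7.95 and 8.08 after IONC, against 5.95, 5.43 and 5.76 after IONT, and the arrays did not overlap. The difference was 1.72 (SE 0.53, adjusted p = 0.618). Trib3 read 5.07, 5.94 and 6.35 after IONC, against 4.69, 4.62 and 4.31 after IONT, again without overlap, and differed by 1.25 (SE 0.50, adjusted p = 1). Sesn2 read 7.61, 8.08 and 8.42 after IONC, against 7.33, 7.48 and 7.20 after IONT, and Vldlr read 9.65, 10.09 and 10.04 after IONC, against 9.33, 9.51 and 9.59 after IONT. In both genes the 3 IONC arrays lay above the 3 IONT arrays. At 48 h Trib3 pointed the other way, with 5.02, 4.17 and 4.13 after IONC, against 5.79, 6.11 and 6.20 after IONT, a difference of -1.59 (SE 0.50, adjusted p = 0.431). The change of sign between times was not tested. No share over all genes is given for arrays that lay apart at 7 d, and the members were chosen on the 12 h comparison. Nothing is read from these orders.

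Ordered by group mean, Chac1 was highest at IONT 15 d (10.09) and in naive retinas (9.71), whose arrays overlapped, and then came IONT 12 h (8.68), IONT 3 d (8.43), IONT 48 h (8.22), IONC 3 d (7.67), IONT 24 h (7.53), IONC 7 d (7.43), IONC 48 h (7.40), IONC 24 h (6.85), IONT 7 d (5.71) and IONC 12 h (5.01). Only 3 of the 11 pairs of neighbours in that order were apart, naive from IONT 12 h, IONT 48 h from IONC 3 d, and IONC 24 h from IONT 7 d. For Trib3 the order began with IONT 15 d (8.03) and naive (7.63) and ended with IONT 7 d (4.54), IONC 48 h (4.44) and IONC 12 h (3.91), with 4 of 11 neighbours apart. Of the other members, Vldlr had 2 neighbours apart, Atf5, Ddit3, Sesn2 and Ppp1r15a 1 each, and Atf4, Ddit4 and Eif2ak3 0. No share over all genes is given for neighbours apart, and the order includes IONC 12 h, which the members were chosen on. Nothing is read from these counts.

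Across the 34 arrays without IONC 12 h replicate 2, which share groups and are not independent, the likeness of profiles is given as a description with no p. These arrays include naive and 12 h arrays whose comparisons the members were chosen on. Nothing is therefore read from correlations among the members. Chac1 and Sesn2 correlated with r = 0.94, Trib3 and Sesn2 with 0.89, and Chac1 and Trib3 with 0.88, whereas Atf5 and Ddit4 gave -0.57. Outside the members, the genes most like Chac1 were Cars1 (0.95) and Mthfd2 (0.93), a mitochondrial enzyme of folate metabolism, and the gene most like Trib3 was Mthfd2 (0.92). Vldlr was most like Lars1 (0.95), Gars1 (0.94) and Vegfa (0.94), the first 2 being tRNA synthetases and the third a growth factor of blood vessels. Atf4 and Ddit3 both had Slc1a4 among their closest genes (0.83 and 0.89). Atf5 was most like Fastk (0.86), Ddit4 like Taok3 (0.83) and Hk2 (0.82), and Ppp1r15a like Xab2 (0.87). Eif2ak3 had the loosest partners, Ahr and Kremen1, both at 0.73.

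The wider pathway was read from gene lists. Of 22 measured metabolic and secreted targets of Atf4, 7 fell at IONT 7 d and 0 rose, with 6 lower at IONC 24 h, 4 at IONC 48 h, 3 at IONC 3 d and 2 at IONC 7 d. At IONT 24 h and 48 h 2 were lower at each time, at IONT 3 d 1 rose, and at IONT 15 d 2 rose. Of all probe sets, in either direction, 1.46% were called at IONT 7 d, 1.15% at IONC 24 h, 1.6% at IONC 48 h, 0.535% at IONC 3 d and 0.741% at IONC 7 d, with 2.59% at IONT 24 h and 2.62% at IONT 48 h. On the 34 arrays without IONC 12 h replicate 2, 8 were lower at IONT 24 h, beside 5.41%, 5 at IONT 48 h, beside 6.04%, 7 at IONT 7 d, beside 6.62%, 7 at IONC 24 h, beside 4.1%, 6 at IONC 48 h, beside 5.21%, 7 at IONC 3 d, beside 4.29% and 4 at IONC 7 d, beside 3.75%. In the array-set model the counts were 0 at IONT 24 h, 0 at IONT 3 d and 1 at IONT 15 d. Their median at IONT 7 d was -0.36, against 0.05 for all genes. Mthfd2 fell the most. It read 2.90, 2.41 and 2.86 at IONT 7 d and 9.05 and 9.14 at IONT 15 d, against 8.96, 8.99, 9.27, 8.91 and 8.68 in naive retinas. The difference at IONT 7 d was -6.24 (SE 0.50, adjusted p = 1.66e-08), and it also fell at IONC 24 h (-3.60, adjusted p = 0.000109), 48 h (-4.36, adjusted p = 7.77e-06) and 7 d (-2.84, adjusted p = 0.00184). The injuries differed in Mthfd2 at 7 d, with 4.57, 6.58 and 7.21 after IONC, against 2.90, 2.41 and 2.86 after IONT (difference 3.40, SE 0.56, adjusted p = 0.00913), though leaving out any of 28 of the 35 arrays ended this call. Asns, asparagine synthetase, fell at IONT 7 d (-2.89, adjusted p = 4.08e-06) and at IONC 3 d (-2.15, adjusted p = 0.000676), and Slc7a1, a carrier of arginine and lysine, fell at IONT 7 d (-4.73, adjusted p = 4.13e-05). Asns was also called lower at IONC 24 h and 48 h, with means of 9.93 and 9.98, against 11.62 in naive retinas. Leaving out any of 5 arrays ended the call at IONC 24 h, and any of 5 that at IONC 48 h. Eif4ebp1, a brake on cap-dependent translation, fell at IONT 24 h (-2.78, adjusted p = 0.00419), a call that the array-set model ended.

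The cytosolic aminoacyl-tRNA synthetases, which load tRNAs with amino acids and many of which Atf4 induces, had most calls outside 12 h at IONT 7 d. Of 19 measured, 8 were lower and 0 higher there, with a median of -0.89, against 0.05 for all genes. There Iars1 fell (-2.33, adjusted p = 8.48e-07), Tars1 (-1.97, adjusted p = 5.8e-05), Yars1 (-1.94, adjusted p = 4.08e-06) and Mars1 (-1.94, adjusted p = 3.64e-05). After IONC 4 were lower at 24 h and 6 at 48 h, then 5 at 3 d, and 0 at 7 d, and after IONT 1 was lower at 24 h, 2 at 48 h and 0 at 3 d, to be read beside the shares of all probe sets just given. On the 34 arrays the lower synthetases numbered 11 at IONT 7 d, 8 at IONC 24 h, 8 at IONC 48 h, 10 at IONC 3 d and 5 at IONC 7 d, and 2 and 2 at IONT 24 h and 48 h. At IONT 15 d 2 rose and the median was 0.34, and in the array-set model 0 were called there, at IONT 24 h, at IONT 48 h or at IONC 3 d. At 12 h, given without a test as for the members, 11 of 19 synthetases and 8 of 22 metabolic targets passed the thresholds on the lower side after IONC, and 4 and 4 without replicate 2. At IONT 12 h 0 synthetases and 1 metabolic target did.

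The other arms of the unfolded protein response run through Atf6 and Ire1. Against naive retinas with all arrays, only Calr and Hyou1 were called there outside 12 h, and both rose. Of 21 genes measured, 0 were called lower at any time against naive retinas with all arrays. Calr, a chaperone of the endoplasmic reticulum, rose at IONT 48 h by 1.17 (adjusted p = 0.00191), at IONC 24 h by 1.28 (adjusted p = 0.00167) and at IONC 48 h by 1.08 (adjusted p = 0.00676), and Hyou1, another chaperone, rose at IONC 48 h by 1.22 (adjusted p = 0.0068). None of these 4 calls held in the array-set model. Of all probe sets, in either direction, 2.62% were called at IONT 48 h, 1.15% at IONC 24 h and 1.6% at IONC 48 h. On the 34 arrays without IONC 12 h replicate 2, 5 were higher at IONT 48 h, beside 6.04% of all probe sets. At IONC 24 h 6 were higher, beside 4.1%, and at IONC 48 h 5, beside 5.21%. On the lower side were 1 at IONT 3 d, beside 4.9%, and 1 at IONT 15 d, beside 7.06%. Manf, a secreted factor of the same program, stood 1.40 above naive retinas at IONC 12 h, described without a test.

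**Figure D3:**
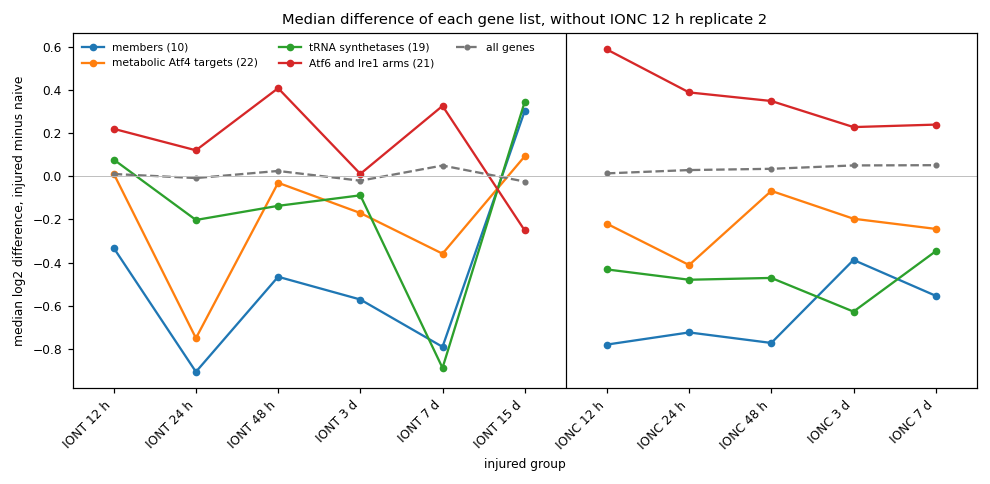
Median log2 difference from naive retinas (vertical axis), without IONC 12 h replicate 2, of the 10 members, 22 metabolic targets of Atf4, 19 tRNA synthetases, 21 genes of the Atf6 and Ire1 arms and all genes, by time after IONT (left) and IONC (right). At IONT 7 d the members lie at -0.79 and the synthetases at -0.89, while all genes lie at 0.05.

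Of 17 other kinases, phosphatase subunits and eIF2 and eIF2B subunits, 1 was called, Eif2s2, the beta subunit of eIF2, which fell at IONT 7 d (-1.04, adjusted p = 0.00268) and at IONC 48 h (-0.93, adjusted p = 0.00667), calls that both ended in the array-set model. Of 10 transcription factors that act with or after Atf4, 1 rose at each of IONT 48 h, IONC 24 h and IONC 48 h and 1 fell at IONT 3 d. The shares of all probe sets called were 2.62% at IONT 48 h and 1.15% at IONC 24 h. They were 1.6% at IONC 48 h and 2% at IONT 3 d. Nupr1, a small stress-induced chromatin protein, rose at IONC 48 h by 3.77 (adjusted p = 0.00068), and Cebpb, a dimer partner of Atf4, rose at IONT 48 h by 2.46 (adjusted p = 0.000127) and at IONC 24 h by 1.89 (adjusted p = 0.00494). Atf2 fell at IONT 3 d (-2.13, adjusted p = 0.00294), a call that ended in the array-set model, like that of Cebpb at IONC 24 h. On the 34 arrays without IONC 12 h replicate 2, 2 of these factors were lower at each of IONT 7 d, IONC 24 h, IONC 48 h and IONC 3 d, and 2 were higher at each of IONT 48 h, IONC 48 h and IONC 3 d. The shares of all probe sets then called were 6.62% at IONT 7 d, 4.1% at IONC 24 h and 5.21% at IONC 48 h. For IONC 3 d and IONT 48 h they were 4.29% and 6.04%. Atf3 differed by -3.27 between IONC and IONT at 12 h, described without a test.

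Ddit4 and Sesn2 also answer to hypoxia, glucocorticoids and p53, so genes of these programs were read beside them. Of 13 hypoxia-induced genes, 2 fell at IONT 24 h, Hk2, a glycolytic kinase (-3.04, adjusted p = 0.00798) and Ndrg1 (-0.59, adjusted p = 0.00476), the call of Hk2 ending in the array-set model, and Ndrg1 fell at IONT 48 h (-0.76, adjusted p = 6.18e-05). Of 7 glucocorticoid-induced genes, Per1, a clock gene, fell at IONT 48 h (-1.71, adjusted p = 0.000384), at IONT 7 d (-1.72, adjusted p = 0.000622) and at IONC 7 d (-1.56, adjusted p = 0.00284), the last not in the array-set model, and Fkbp5 rose at IONT 15 d by 0.86 (adjusted p = 0.004). Of 7 p53-induced genes, Gadd45a rose at IONT 48 h by 1.92 (adjusted p = 5.04e-05), at IONT 7 d by 1.78 (adjusted p = 0.000237) and at IONC 7 d by 1.35 (adjusted p = 0.00704), the last not in the array-set model. Ccng1, a cyclin, rose at IONT 24 h by 0.79 (adjusted p = 0.00418), not in the array-set model, and at IONT 48 h by 0.67 (adjusted p = 0.00505). Cdkn1a, which encodes the cell cycle inhibitor p21, rose at IONT 3 d by 1.61 (adjusted p = 0.000871), not in the array-set model, and Bbc3, a gene of apoptosis, rose at IONT 15 d by 1.34 (adjusted p = 0.000309). Of the p53-induced genes named, only Gadd45a was called at IONT 7 d. There the means of Ccng1, Bbc3 and Cdkn1a were 11.50, 5.44 and 5.69, against 11.61, 5.66 and 5.37 in naive retinas. Sesn2 at IONT 7 d differed by -1.78 (SE 0.41, adjusted p = 0.0132). Of all probe sets, 2.59% were called at IONT 24 h, where 2 hypoxia-induced genes fell. The part of the hypoxia, glucocorticoid and p53 programs in Ddit4 and Sesn2 was not tested.

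In whole retinas, fewer cells of a type and less RNA per cell cannot be told apart, so cell type markers were read at the same times. The 6 rod markers measured averaged 13.50 to 13.56 in naive retinas. The mean signal of 8 retinal ganglion cell markers was 8.80 to 8.88 at IONT 12 h, 6.72 to 7.08 at IONT 7 d and 5.65 to 5.95 at IONT 15 d, 7.93 to 9.05 at IONC 12 h and 7.12 to 7.46 at IONC 7 d, against 8.81 to 9.21 in naive retinas, and 6 of 8 were called lower at 7 d after either injury and at IONT 15 d. At IONT 15 d, where these markers were lowest, Chac1 and Trib3 were at or above their naive levels. At IONC 24 h, where Chac1, Trib3 and Atf4 had fallen, 0 of 8 were called and their mean signal was 8.89 to 9.02. Of 6 rod markers 4 were lower at IONT 48 h, and at 12 h, without a test, 4 passed the thresholds after IONC and 3 after IONT, and of 5 cone markers 2 were lower at IONT 48 h. Of 6 Muller glia markers 2 (Glul and Rlbp1) were lower at IONT 48 h, and of 9 bipolar and amacrine cell markers 1 (Calb2) at IONT 15 d. The mean of 7 microglia and macrophage markers was 4.28 to 4.52 at IONT 7 d and 4.56 to 4.73 at IONC 48 h, against 3.22 to 3.72 in naive retinas, and that of 3 astrocyte markers was 7.26 to 7.34 at IONT 7 d and 7.18 to 7.49 at IONC 48 h, against 5.74 to 6.50 in naive retinas, Gfap being called. Of 4 endothelial markers 1 (Vwf) was called higher at IONT 24 h, 48 h, 3 d and 15 d and at IONC 24 h, 48 h and 3 d, and of 8 lens, pigment epithelium and blood markers 4 were lower at IONT 15 d. Beside these marker counts, 1.46% of all probe sets were called at IONT 7 d, 0.741% at IONC 7 d and 4.03% at IONT 15 d. The shares were 1.15% at IONC 24 h and 2.62% at IONT 48 h. At 12 h, 5.65% passed the thresholds after IONC and 1.3% after IONT. The part of these cell types in the values of the 10 genes was not tested.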

How the data were processed

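The authors deposited a table of log2 signals, with a row per probe set and a column per array, made with GCRMA, which corrects background from probe sequence, normalizes by quantiles and summarizes probes. The submitters' processing notes name GCRMA and limma. Neither version is given in the sources used here, nor is it stated that all arrays went through GCRMA in 1 run. GCRMA compresses low signals, so differences of dim probe sets are uncertain.

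The values were used without further normalization. Of 31099 probe sets, 57 controls were left out. Of the other 31042, 20826 carried 1 gene symbol in the platform annotation, 436 several and 9780 none. In R 4.3.3, limma 3.58.1 fitted 1 mean per group over 35 arrays in 12 groups, with Benjamini-Hochberg adjustment within each comparison, after a test on simulated data. The array set limit was an actin difference of 2.4.

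The members, lists and tests were chosen with earlier results of these data known. Named were all 10 members, up to 4 genes of each list with the largest called change, or up to 2 of the brightest where none was called, and the 3 genes most correlated with each member. A gene was read from its brightest probe set. Alternatives covered thresholds, normalization, filters, variance model, probe sets, array set, replicate block and single arrays.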

Additional observations from a re-analysis of the deposited data

Results flagged for a closer look

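Atf5 read 8.23 in naive replicate 5, far from the other 4 naive arrays, by Dixon's test at the 95% level, which about 1 in 20 groups passes by chance. The other results are log2 differences between the injuries, IONC minus IONT, after 12 h those that limma called.

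The comparison at 12 h is the one that the genes were chosen on, so its differences past the thresholds are listed as values only, with nothing read from them, first with all arrays and then without IONC 12 h replicate 2. They were, for the members, Chac1 (-3.67 and -2.74), Trib3 (-2.53 and -1.59), Sesn2 (-2.51 and -1.52) and Atf4 (-0.92 and -0.77). Of 6 metabolic targets of Atf4 and 8 synthetases, those named were Mthfd2 (-4.07 and -3.34), Slc7a1 (-3.33 and -1.83) and Asns (-1.90 and -1.58) among the metabolic targets of Atf4 and Tars1 (-1.83 and -1.26), Mars1 (-1.62 and -1.17), Iars1 (-1.54 and -1.22) and Yars1 (-1.29 and -0.89) among the synthetases. For genes of other lists they were Atf3 (-3.27 and -2.03), Bbc3 (-1.48 and -1.41), Sgk1 (-1.21 and -0.96), a glucocorticoid-induced kinase, and Eif2s2 (-1.10 and -0.66).

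At 24 h IONC lay above IONT in Hyou1 (2.23), Atf2 (2.18) and Calr (1.51). At 3 d it lay above IONT in Atf2 (2.62), Hyou1 (2.16) and Calr (1.26) and below it in Asns (-2.06). All IONT arrays at these times had the larger actin difference, and in a model with a term for that set of arrays none of these 7 was called. At 7 d Mthfd2 was higher after IONC (3.40).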

How the results depend on the processing

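With all 35 arrays and the thresholds of the report, 6 values of the 10 members were called against naive retinas after IONT and 14 after IONC. Between the injuries 4 were called, and the 12 h values are included in all of these counts. All 4 between the injuries and 6 of the 14 after IONC were at 12 h, which the genes were chosen on. Counted the same way, there were 15 after IONT and 8 between the injuries at an adjusted p below 0.05 without B, 10 after IONT and 9 after IONC with the replicate block, 12 and 24 with cyclic loess, 11 after IONT with probe sets averaged per gene, and 10, 9 and, between the injuries, 1 with only the 2 groups compared. In the array-set model fitted without IONC 12 h replicate 2, an alternative added after the data were seen, there were 16 after IONT and 29 after IONC. Leaving out single arrays gave 3 to 22 after IONT, 8 to 27 after IONC and 2 to 6 between the injuries. The highest of the IONT and IONC counts came without IONC 12 h replicate 2. Without that array the share of all probe sets called moved too, at IONT 7 d from 1.46% to 6.62%. These counts are therefore not read as a result about the members.

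Of 160 member values, no called one changed direction under these alternatives, and leaving out each array kept 5436 of 5600 on their side of the thresholds, lost 108 and added 56. For 89 called values of the other pathway genes, 34 were lost in the array-set model, 32 with the replicate block and 55 with only the 2 groups compared. Without naive replicate 5, the calls against naive retinas were 5 higher and 13 lower, against 1 higher and 19 lower with it. The cause of these changes was not tested. Using each array set's own naive arrays gave the same estimates as the array-set model.

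The replicate numbers of the labels were read for pairing. Over 43 same-numbered pairs, the correlation of deviations from group means ran from -0.10 to 0.14 with a median of 0.02. Of 33 arrays, 16 correlated best with an array of their own number, a count given without the number expected by chance. Whether arrays were paired by number is therefore not settled, and counts with the replicate block are given above. The number of arrays, 2 to 5 a group, limits the precision.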
